A study of Mus musculus with 4 samples.

Results

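A set of 10 NF-kB pathway genes was followed in cultured aortic smooth muscle cells with and without a floxed Atg7 allele: the transcription factor subunits Nfkb1, Nfkb2, Rel, Rela and Relb, and the feedback inhibitors Nfkbia, Nfkbib, Nfkbie, Nfkbiz and Tnfaip3. They were found by gene name among the non-control probes of the arrays, which gave 14 probes on 32 spots, out of 41174 probes on 43379 spots. The cells were primary aortic smooth muscle cells from mice, with the strain written as C57LB/6 in the labels. Cells labelled Atg7F/F SM22α-Cre+ were compared with cells labelled Atg7+/+ SM22α-Cre+, so both genotypes carried Cre recombinase driven by the promoter of SM22α, a gene of the smooth muscle lineage. Atg7 encodes an E1-like enzyme needed for autophagosome formation. Cells of both genotypes were kept in DMEM/F-12 with 10% serum and used at passages 4 to 10, with no stimulus named and no age of the mice given. Each genotype had 2 biological replicates, and each Atg7F/F extract was hybridised with the Atg7+/+ extract of the same number on 2 arrays with exchanged dyes, which made 4 arrays. The labels do not say which animals the replicates came from, so the p-values refer to these extracts and cannot be read as a spread between animals. The spread used in the test was estimated in part from all genes.

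NF-kB is a family of dimers. Rela, Relb and Rel carry a transactivation domain, while Nfkb1 and Nfkb2 encode precursors that are processed to the p50 and p52 subunits. In resting cells the inhibitors IkBα, IkBβ and IkBε, encoded by Nfkbia, Nfkbib and Nfkbie, hold dimers in the cytoplasm until IkB kinase marks them for degradation. Nfkbia, Nfkbie and Tnfaip3 are themselves induced by NF-kB, which closes a negative feedback loop, and in vascular smooth muscle the pathway is known for driving chemokine and adhesion molecule genes after cytokine stimulation.

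Of the 10 genes, 8 had a probe well above background and could be tested, and none of the 8 was called different between the genotypes. With 2 replicates this does not show that they were equal, and Atg7 itself, at a log2 ratio of -1.22, was not called. Their mean log2 ratios, Atg7F/F over Atg7+/+, lay between -0.18 for Nfkbib and 0.11 for Nfkbiz. Nfkb1 and Rel gave no probe that passed the filter. The subunits Rela, Relb and Nfkb2 and the inhibitors Nfkbia, Nfkbib, Nfkbie, Nfkbiz and Tnfaip3 were well above background in every channel, although Nfkbie and Nfkbiz read no more than 2.17 times their local background. Tnfaip3 had the widest gap between its replicates, at 0.31 and -0.39. Of all 12367 genes tested, 0% had an adjusted p below 0.05 and 2.98% (369 genes) had an unadjusted p below 0.05, with limma's moderated test and Benjamini-Hochberg adjustment. Of the 8 genes, 0 passed either threshold.

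The probes of Nfkbia, Nfkbib and Nfkb2 are printed here because the values of these genes rest on them, and for Rela the second probe is printed, which was read on 10 spots and is set beside the brighter probe that stands for the gene. They are written 5′ to 3′ as in the scanner files, in lower case with no base marked. The Nfkbia probe lies at chr12:56590945-56591440 on the minus strand of mm9, the build of the files. The Nfkbib probe lies at chr7:29544167-29544848 on the minus strand, the Nfkb2 probe at chr19:46386146-46386285 on the plus strand, and the second Rela probe at chr19:5647136-5647195 on the plus strand. Each has 60 bases, so the first 3, which span 496, 682 and 140 bases of the genome, cover more genome than their own length. No mm9 annotation was used here, so exons are not stated.
Nfkbia: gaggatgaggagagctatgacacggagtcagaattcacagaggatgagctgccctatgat
Nfkbib: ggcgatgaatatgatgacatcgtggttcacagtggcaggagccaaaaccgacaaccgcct
Nfkb2: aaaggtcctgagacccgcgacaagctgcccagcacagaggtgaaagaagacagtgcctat
Rela, second probe: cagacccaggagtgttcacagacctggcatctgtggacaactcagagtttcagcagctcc

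Several of these genes have matches to the consensus of kappa B sites, the sequences NF-kB dimers bind, close to their start. The promoters of Nfkbia, Nfkb2 and Tnfaip3 are shown because these 3 genes are known targets as well as members of the pathway. The sequences are from RefSeq on GRCm38.p6, cover the 130 bases before the start of the gene and run 5′ to 3′ on the gene's strand. The table gives 3 starts for Nfkb2 and 2 for Tnfaip3, and the stretch shown for each is the one with matches; the 130 bases before the other starts held 0 matches. Capitals mark matches to the 10-base kappa B consensus on either strand. The Nfkbia stretch is chr12:55492648-55492777 (minus strand), the Nfkb2 stretch chr19:46304607-46304736 (plus strand) and the Tnfaip3 stretch chr10:19015411-19015540 (minus strand).
Nfkbia: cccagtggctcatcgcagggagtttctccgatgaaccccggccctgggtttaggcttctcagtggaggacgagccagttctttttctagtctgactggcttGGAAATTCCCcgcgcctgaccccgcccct
Nfkb2: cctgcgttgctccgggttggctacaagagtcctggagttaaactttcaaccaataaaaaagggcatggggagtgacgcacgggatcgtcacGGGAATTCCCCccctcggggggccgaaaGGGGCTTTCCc
Tnfaip3: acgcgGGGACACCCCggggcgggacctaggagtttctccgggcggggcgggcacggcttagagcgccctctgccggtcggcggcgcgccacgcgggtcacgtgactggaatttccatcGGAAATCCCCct

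The single Nfkbia match begins 29 bases before the start. In Nfkb2 a pair of overlapping matches forms the first run of capitals and a separate match lies nearer the start. Of the 7 members with an entry in the promoter table, which covers 250 bases before to 50 after the start, 5 (71.4%) held at least 1 match: Nfkb2, Nfkbia, Nfkbie, Rel and Tnfaip3. Rela and Nfkbib held none. Among all 27025 genes with an entry, 1388 (5.14%) held a match, as did 1480 of 32851 promoters (4.51%). A match is a description of these letters and does not show binding in these cells.

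Atg7 itself was measured first, as a check of the labels. Its normalised log2 signal was 7.06 and 6.94 in the Atg7F/F extracts and 8.23 and 8.20 in the Atg7+/+ extracts, so the groups did not overlap. The log2 ratio was -1.22 ± 0.07 (SD, n = 2), 2.33-fold lower, and was below 0 on all 4 arrays. Its unadjusted p was 0.000607 and its adjusted p 0.938 in the limma fit over all genes. With the software's processed signals, in place of a background correction with an offset of 50, the log2 ratio was -2.35. The sources used here do not say which part of Atg7 was floxed, so it is not known whether this probe lies within it. In the Atg7F/F channels the probe read only 1.36 to 2.38 times its local background, so the size of the ratio is uncertain. A second Atg7 probe was well above background in 0 of 8 channels.

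All 4 arrays lay on 1 slide, without a saturated spot, and the share of spots well above background ran from 43.3% to 45.5% over the 8 channels. Summed normalised signals of 8 smooth muscle markers were 257559 and 195478 in replicates 1 and 2 of Atg7F/F and 268314 and 237152 in those of Atg7+/+, with Myocd not above background. The other 7 had a median log2 ratio of -0.14, with 5 means below 0 and 2 above. Acta2 and Tagln were lower on all 4 arrays. Replicates had opposite signs for 4 of the 7, against 54.5% of all genes tested. Among these, Cnn1 had 0.40 and -0.40 and Myh11 0.25 and -0.54 in replicates 1 and 2. For 8 endothelial markers, none at background, the sums were 4635 in Atg7F/F against 4509 in Atg7+/+ in replicate 1. In replicate 2 they were 4418 against 9682, so the Atg7+/+ extract of replicate 2 had the high sum. Such sums weigh the brightest genes most. Of single endothelial markers, 7 of the 8 were lower in Atg7F/F on all 4 arrays, against 9.95% of all genes tested. The other, Emcn, had 0.17 in replicate 1 and -1.34 in replicate 2. The median log2 ratio of the 8 was -0.32, with -0.17 in replicate 1 and -0.43 in replicate 2. Among macrophage and leukocyte markers, Ptprc, Adgre1, Itgam and Fcgr1 were not above background, and the mean log2 ratio was -0.37 for Cd68, -0.09 for Cd14, 0.16 for Csf1r and 0.04 for Cd3e. Sums for 6 fibroblast markers were 2371 against 3112 in replicate 1 and 3800 against 4351 in replicate 2. The single fibroblast markers were mixed, with 3 mean log2 ratios above 0 and 3 below. Their median was -0.45 in replicate 1 and 0.29 in replicate 2, so the sum and the median differed in direction in replicate 2. Fewer cells of a type and less RNA per cell cannot be told apart in such bulk RNA, and the part of these cells in the values of the NF-kB genes was not tested.

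Among the subunits, Rela encodes p65, the transactivating partner in the classical p50 dimer. Its brighter probe, at chr19:5647632-5647691 of mm9, read 4182 and 3696 in Cy5 and 3123 and 3063 in Cy3 in replicates 1 and 2 of Atg7F/F. In Atg7+/+ it read 4159 and 4102 in Cy5 and 3313 and 3418 in Cy3. Such raw readings of one dye come from different arrays and are not normalised. The normalised log2 signals were 11.76 and 11.82 in Atg7F/F and 11.82 and 11.89 in Atg7+/+ extracts, and the groups overlapped. The mean log2 ratio was -0.06 ± 0.01 (SD, n = 2), with a 95% interval of -0.32 to 0.20 from the limma fit. With Atg7F/F in Cy5 the ratios were -0.22 and -0.20, and with Atg7F/F in Cy3 they were 0.11 and 0.06. The sign for Rela therefore followed the dye and not the genotype. The probe with 10 spots did the same, at -0.31 and -0.28 with Atg7F/F in Cy5 against 0.22 and 0.05 with Atg7F/F in Cy3. Over the 10 spots of that probe the raw Cy5 signal was 482 ± 47.2 and 378 ± 38.9 (SD over spots) in Atg7F/F and 483 ± 44.6 and 456 ± 50.3 in Atg7+/+ extracts. These are repeat spots of one hybridisation, not replicates.

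Nfkb2 encodes p100, both an inhibitor and the precursor of p52 in the non-canonical branch. In Atg7F/F extracts it read 2183 and 1869 in Cy5 and 1577 and 1696 in Cy3. In Atg7+/+ extracts it read 1907 and 2191 in Cy5 and 1680 and 1832 in Cy3. Replicate 1 was higher in Atg7F/F within Cy5 and lower within Cy3, while replicate 2 was lower in both dyes. After normalisation the log2 signals were 10.80 and 10.93 in Atg7F/F and 10.77 and 10.99 in Atg7+/+ extracts, with Atg7F/F inside the range of Atg7+/+. The mean log2 ratio was -0.01 ± 0.07 (SD, n = 2), and the 4 arrays gave -0.15 and -0.22 with Atg7F/F in Cy5 against 0.22 and 0.10 with Atg7F/F in Cy3.

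Relb, the partner of p52 in the non-canonical dimer, gave the ratios nearest to 0 among the subunits on single arrays, from -0.07 to 0.01. Its raw signal was 1326 and 1081 in Cy5 and 909 and 881 in Cy3 in Atg7F/F extracts. In Atg7+/+ extracts it was 1301 and 1268 in Cy5 and 944 and 916 in Cy3. The log2 signals of 10.05 and 10.09 in Atg7F/F overlapped with 10.08 and 10.12 in Atg7+/+ extracts. The mean log2 ratio was -0.03 ± 0.00141 (SD, n = 2), with a 95% interval of -0.29 to 0.23.

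The other two subunits could not be compared. Nfkb1 encodes p105, the precursor of p50, and had 4 probes that the files name Nfkb1, none of which carries a RefSeq transcript record of that gene. One of them, at chr3:135274175-135274234 of mm9, was well above background in 3 of 8 channels, at 60.5 to 98.1, and the other 3 probes in 0 of 8 channels. The probe for Rel, which encodes the c-Rel subunit, was well above background in 0 of 8 channels, at 54.7 to 86.4, between 1.02 and 1.24 times its local background. The genome coordinates given for the Rel probe cover only 15 bases. These readings set no level for either transcript. No ratio is given for them.

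**Figure D1:**
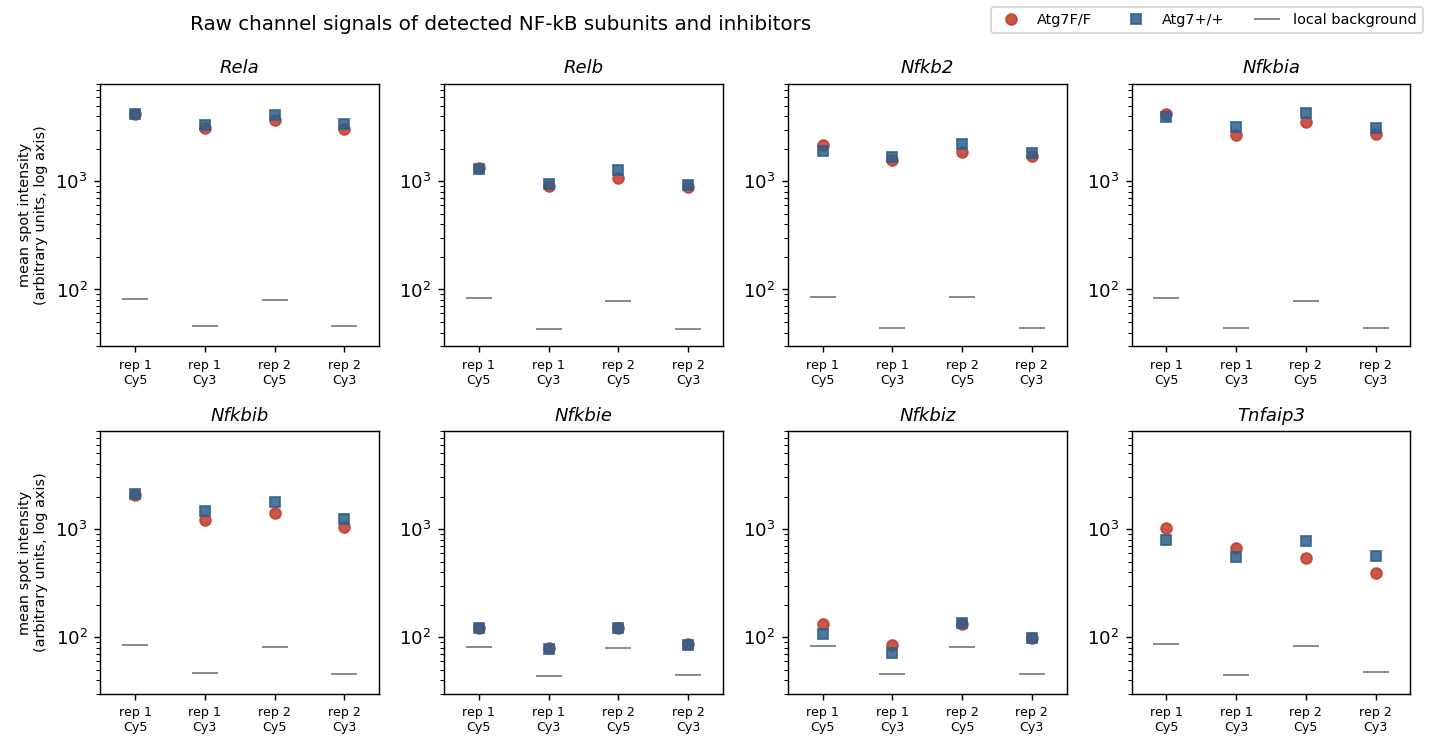
Raw mean spot intensity (arbitrary units, log axis) of the 8 tested genes by replicate and dye, for Atg7F/F (circles) and Atg7+/+ (squares); grey dashes are the local background of the same spots. Nfkbie and Nfkbiz lie close to background, at no more than 2.17 times it, and Tnfaip3 is higher in Atg7F/F in replicate 1 and lower in replicate 2 in both dyes.

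Among the inhibitors, Nfkbia encodes IkBα, the fast feedback inhibitor of p65 dimers. In Atg7F/F extracts it read 4183 and 3536 in Cy5 and 2694 and 2736 in Cy3. In Atg7+/+ extracts it read 3973 and 4239 in Cy5 and 3167 and 3130 in Cy3. Within a dye, Atg7F/F was lower in 3 of the 4 pairs, the exception being Cy5 in replicate 1. The normalised log2 signals were 11.66 and 11.71 in Atg7F/F and 11.75 and 11.85 in Atg7+/+ extracts. Nfkbia was the 1 tested member whose groups did not overlap. Of all genes tested, 10.1% likewise had both Atg7F/F extracts below both Atg7+/+ extracts and 11.4% had both above, so 1 of 8 members is close to that background. The mean log2 ratio was -0.12 ± 0.03 (SD, n = 2), with a 95% interval of -0.38 to 0.14. Its unadjusted p was 0.253 and its adjusted p 0.9998 in the limma fit.

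Nfkbib encodes IkBβ, a slower inhibitor of the same dimers, and had the mean ratio farthest from 0 among the members. Its raw signal was 2063 and 1415 in Cy5 and 1207 and 1046 in Cy3 in Atg7F/F extracts. In Atg7+/+ extracts it was 2104 and 1798 in Cy5 and 1462 and 1245 in Cy3, so Atg7F/F was lower in each of the 4 pairs within a dye. The normalised log2 signals were 10.57 and 10.38 in Atg7F/F and 10.74 and 10.57 in Atg7+/+ extracts, and replicate 1 of Atg7F/F lay just above replicate 2 of Atg7+/+. The replicate ratios were close to each other, at -0.17 and -0.19, with a mean of -0.18 ± 0.01 (SD, n = 2), 1.13-fold lower. The 95% interval was -0.44 to 0.08, the unadjusted p 0.118 and the adjusted p 0.9998 in the limma fit. By array the ratio was -0.03 and -0.05 with Atg7F/F in Cy5 but -0.32 and -0.32 with Atg7F/F in Cy3. Of all genes tested, 81.7% had a smaller mean ratio in size.

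Nfkbie encodes IkBε and was read close to background, at 77.3 to 122 across channels and between 1.49 and 1.96 times its local background. Its log2 signals of 6.78 and 6.91 in Atg7F/F overlapped with 6.77 and 6.88 in Atg7+/+ extracts. The log2 ratio was 0.02 ± 0.01 (SD, n = 2), and the 4 arrays lay between -0.01 and 0.04. At this signal an offset of 50 can pull a ratio towards 0, and a difference is hard to detect. The mean was 0.03 with an offset of 10 and 0.01 with the software's processed signals.

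Nfkbiz encodes IkBζ, a nuclear member of the family that acts as a cofactor for some target genes. It too was near background, with 132 and 134 in Cy5 and 84.1 and 97.9 in Cy3 in Atg7F/F extracts. In Atg7+/+ extracts the readings were 107 and 135 in Cy5 and 71.0 and 97.8 in Cy3. The Atg7+/+ extract of replicate 1 was thus the low one, and replicate 2 showed almost the same value in both genotypes. The log2 signals were 6.83 and 7.05 in Atg7F/F and 6.64 and 7.02 in Atg7+/+ extracts, which overlap. The log2 ratio was 0.11 ± 0.11 (SD, n = 2), with 0.19 in replicate 1 and 0.03 in replicate 2. With the software's processed signals the mean was 0.50 and with an offset of 10 it was 0.20, at unadjusted p of 0.141 and 0.226 in the limma fits.

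Tnfaip3 encodes A20, a ubiquitin-editing enzyme that shuts off signalling from the TNF receptor to IkB kinase. In replicate 1 the Atg7F/F extract read 1022 in Cy5 and 670 in Cy3 against 785 and 551 in Atg7+/+. In replicate 2 it read 546 in Cy5 and 392 in Cy3 against 780 and 569. The Atg7+/+ extracts were close to each other, and the Atg7F/F extracts lay on either side of them, with log2 signals of 9.65 and 9.03 around 9.34 and 9.42. The log2 ratio was 0.31 in replicate 1 and -0.39 in replicate 2, with a mean of -0.04 ± 0.50 (SD, n = 2) and a 95% interval of -0.70 to 0.62. Both arrays of a replicate had the same sign, 0.38 and 0.24 for the first pair and -0.24 and -0.55 for the second. Tnfaip3 had the largest replicate spread of the 8 tested members.

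**Figure D2:**
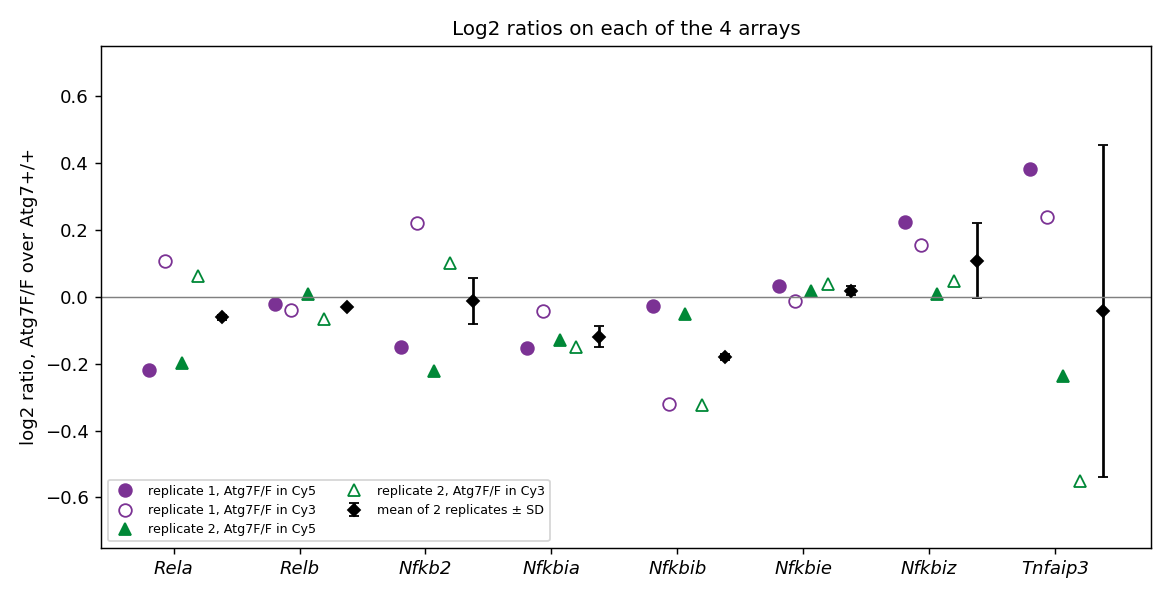
Log2 ratio of Atg7F/F over Atg7+/+ for the 8 tested genes on each of the 4 arrays (circles, replicate 1; triangles, replicate 2; filled, Atg7F/F in Cy5; open, Atg7F/F in Cy3), with the mean of 2 replicates ± SD as a black diamond. Rela and Nfkb2 separate by dye, Nfkbib is below 0 on all 4 arrays, and Tnfaip3 separates by replicate, from 0.38 to -0.55.

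Considered together, 2 of the 8 tested members, Nfkbia and Nfkbib, were lower in Atg7F/F on all 4 arrays and 1, Nfkbiz, was higher on all 4. Among all genes tested 9.95% were lower and 10.6% higher on all 4 arrays. With no background subtraction or with the software's processed signals, 3 members were lower and 1 higher on all 4 arrays. The counts were the same with no filter on dim probes, a setting that takes in Nfkb1 and Rel. After median centring of each array in place of loess, which moved the median of all genes to 0.04, 0 members kept one sign on all 4 arrays in either direction. The means of Rela, Relb, Nfkb2 and Tnfaip3 were then 0.03, 0.03, 0.07 and 0.01, above 0. The 8 members had a median log2 ratio of -0.04 (replicate 1, -0.01; replicate 2, -0.06) against 0.00 for all genes tested. The median size of the ratio, regardless of sign, was 0.05 for the members and 0.07 for all genes. Replicates went in opposite directions for 2 members, Nfkb2 and Tnfaip3, and for 54.5% of all genes tested. Apart from Tnfaip3, the 95% intervals of the members lay between -0.44 and 0.40, with a spread estimate shared across genes.

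The part of a ratio that changes sign with the dyes was taken as the difference between the ratios with Atg7F/F in Cy5 and in Cy3, divided by 2, and averaged over replicates. This dye part was -0.15 for Rela, -0.17 for Nfkb2 and 0.11 for Tnfaip3, in each case larger than the mean ratio. The same held for 41.1% of all genes tested, beside 3 of the 8 members. Nfkbib had a dye part of 0.14, next to a mean ratio of -0.18. Over all 12367 genes the dye parts of the 2 replicates correlated at a Pearson r of 0.76, and the genotype ratios at -0.10. These are descriptions across genes, which are not independent, of arrays that share a slide and dyes.

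**Figure D3:**
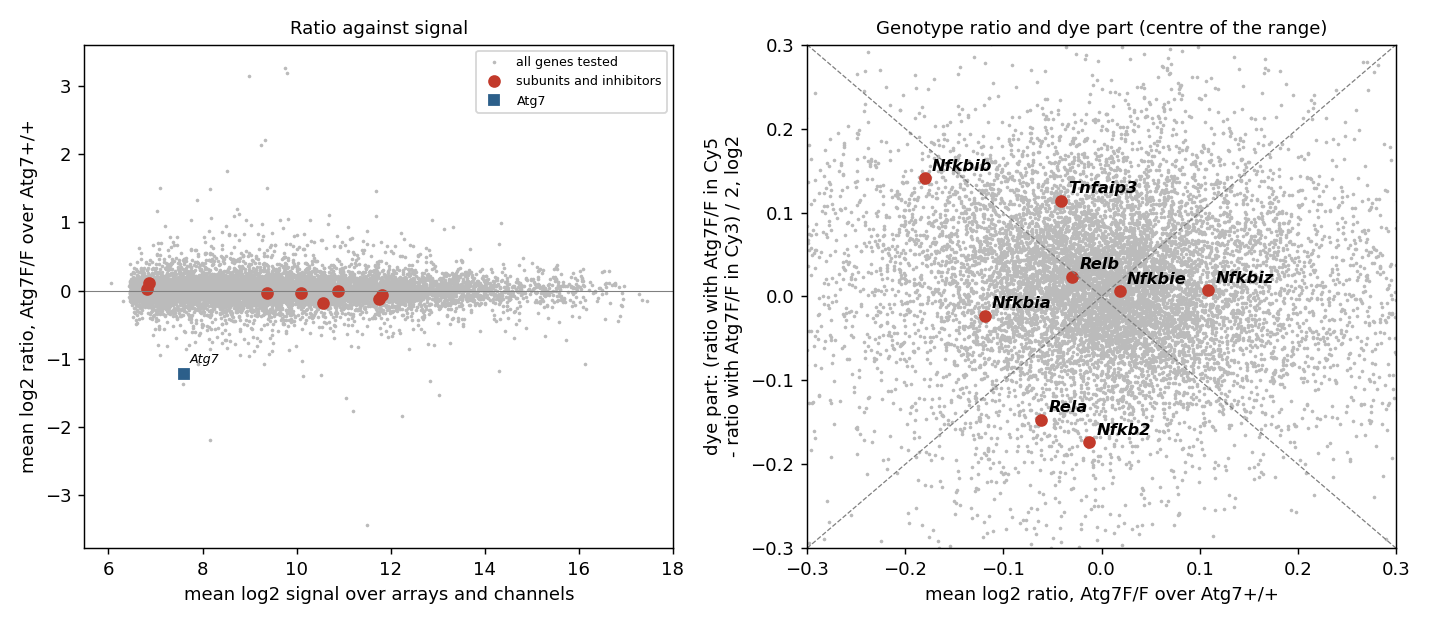
Left, mean log2 ratio of Atg7F/F over Atg7+/+ against mean log2 signal for all 12367 genes tested (grey), the 8 tested members (red) and Atg7 (blue square, -1.22). Right, the dye part (log2) against the mean log2 ratio over the centre of the range; Rela, Nfkb2 and Tnfaip3 lie above or below the dashed diagonals, where the dye part exceeds the genotype ratio.

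The tested genes with the 4 array ratios nearest to those of Nfkbib, by Euclidean distance, were Sdr39u1 at 0.0375, Prkcz at 0.0460 and Fbxl2 at 0.0513. Sdr39u1 had ratios of -0.04 and -0.05 with Atg7F/F in Cy5 and -0.33 and -0.35 with Atg7F/F in Cy3. The likeness is over 4 arrays only and includes the shared dye pattern.

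The rest of the pathway was described from a list of 60 genes upstream of or acting on NF-kB, of which 51 were tested. None was called, and 1, Traf1, was lower at an unadjusted p below 0.05, against 2.98% of all genes at that threshold in either direction. The list had a median log2 ratio of 0.00, equal to that of all genes, and 9 of the 51 were higher and 2 lower on all 4 arrays, against 10.6% and 9.95% of all genes. By role the medians were 0.04 for 21 receptors and adaptors, 0.02 for 13 kinases and ubiquitin ligases, and 0.00 for 17 other inhibitors and modifiers. Traf1, an adaptor of TNF receptor family signalling that NF-kB itself induces, had replicate ratios of -0.22 and -0.46 and a mean of -0.34 ± 0.17 (SD, n = 2), with an unadjusted p of 0.0475 in the limma fit. Bcl3, an atypical IkB protein that binds p50 and p52 homodimers, had 0.25 and 1.03 and a mean of 0.64 ± 0.55 (SD, n = 2). For Il1r1, the signalling receptor of interleukin-1, the replicates were 0.68 and 0.17. Ltbr, the lymphotoxin β receptor of the non-canonical branch, had a mean of 0.19 ± 0.12, Tab1, a partner of the TAK1 kinase, 0.20 ± 0.18, and Ppp4c, a phosphatase subunit, 0.33 ± 0.38 (SD, n = 2). These 6 were named for having the smallest unadjusted p of the list, a choice that favours ratios of one sign. All 6 were on one side of 0 on all 4 arrays, with adjusted p of 0.9998 in the limma fit. A kappa B match was present in 11 of the 49 list genes with a promoter entry (22.4%).

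Of 39 known NF-kB target genes other than the members, 36 were on the array and 21 were tested. The interleukin gene Il1b, the cytokine gene Tnf and the chemokine genes Cxcl1, Cxcl2, Cxcl5, Cxcl10 and Ccl20 were among the 15 that had a probe but did not pass the filter. Of the 21, 0 were called, 2 were higher at an unadjusted p below 0.05, and 2 were higher and 2 lower on all 4 arrays. Over all genes these shares were 2.98% in either direction, 10.6% and 9.95%. Those with the smallest p were Ccl5, a T cell and monocyte chemokine, at 0.67 ± 0.41 (SD, n = 2), and Cx3cl1, the membrane-bound chemokine fractalkine, at 0.41 ± 0.23. Both were above 0 on all 4 arrays, with unadjusted p of 0.0333 and 0.0431 and adjusted p of 0.9998 in the limma fit. Tnfaip2 had -0.16 in each replicate. The growth factor gene Csf1 had -0.00169 and -0.67 in replicates 1 and 2, the transcription factor gene Irf1 0.01 and 0.56, and the adhesion molecule gene Icam1 -0.43 and -0.03, so each of these 3 rested on 1 replicate. A second probe past the filter had a smaller mean for Irf1, 0.09 against 0.28, and for Icam1, -0.11 against -0.23.

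The median log2 ratio of the 21 targets was -0.05, with 0.05 in replicate 1 and -0.11 in replicate 2. It was 0.06 under median centring, 0.0025 with no filter on dim probes and -0.10 with the software's processed signals, so its sign changed with the processing. The monocyte chemokine genes Ccl2 and Ccl7, singled out after their values were seen, had 0.50 and 0.29 in replicate 1 and -0.95 and -1.19 in replicate 2. Both had the sign of Tnfaip3 in each replicate, as did Birc3, Ier3, Il6, Mmp3, Plau, Ptgs2 and Vcam1. C3, Cfb and Ptges had the sign opposite to Tnfaip3 in each replicate. Some of these signs rest on ratios near 0, with -0.0032 for Birc3 and -0.03 for Ier3 in replicate 2 and -0.03 for Cfb in replicate 1. The share of all genes with either order of signs was not counted. A link to Tnfaip3 was not tested. A second probe past the filter had a mean of -0.54 against -0.16 for Vcam1, and of -0.43 against -0.45 for Ccl7. Of the 21 targets, 12 had replicates of opposite sign, against 54.5% of all genes tested. A kappa B match was present in 10 of the 28 targets with a promoter entry (35.7%).

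**Figure D4:**
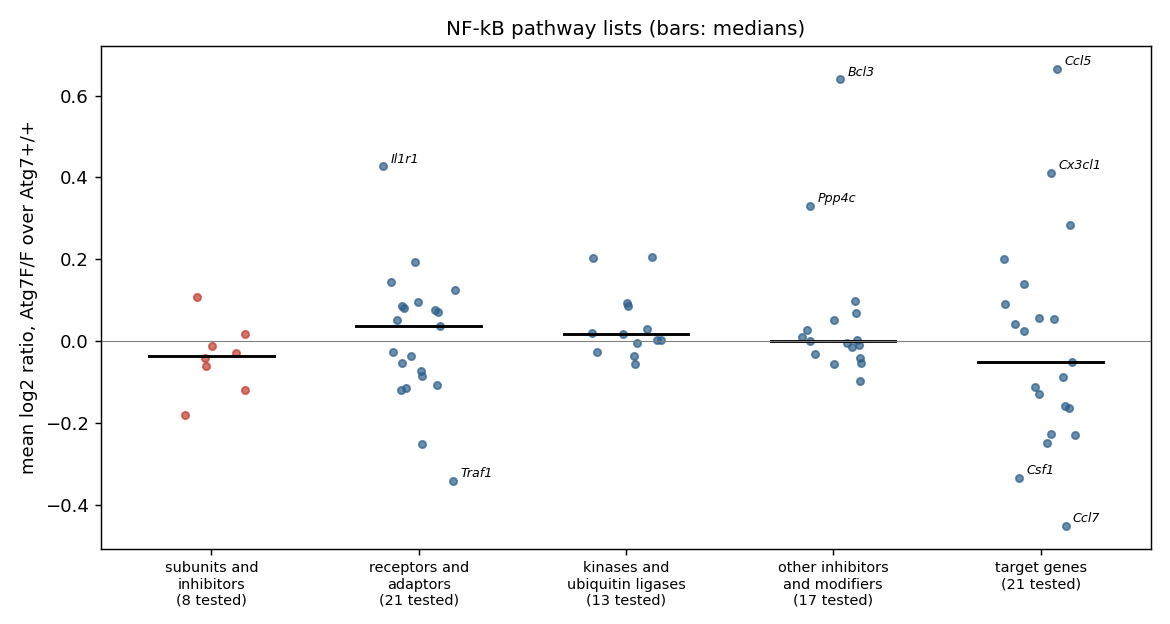
Mean log2 ratio of Atg7F/F over Atg7+/+ (2 replicates) for each tested gene of the members and of the pathway lists, with bars at the medians and names where the ratio is far from 0. The members lie between -0.18 and 0.11, and the 21 targets between -0.45 for Ccl7 and 0.67 for Ccl5.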

How the data were processed

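Expression was measured in smooth muscle cells of 2 genotypes, 2 replicates each, on 4 two-colour arrays. The deposited scanner files hold mean and local background intensity per spot and channel, not normalized. Per the submitters' processing notes, the authors read them from the scans in Agilent Feature Extraction, version 10.1.1.1. The table the authors deposited holds log2 ratios of the software's processed signals: for 100% of probes it equalled that ratio, turned to Atg7F/F over Atg7+/+, within 0.01, with no further centring and column medians of 0.199, -0.0939, 0.0809 and -0.0371. The dyes, and so the direction, come from the labels.

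Background was corrected with limma 3.58.1 in R 4.3.3 (normexp, offset 50, which shrinks ratios of dim spots), followed by loess within each array with control spots at weight 0. Signals per extract came from Aquantile scaling after loess, averaged over both dyes. The 2 dye-swapped arrays of a replicate were averaged, so n = 2. Probes with a non-uniformity outlier were dropped, as were those that in neither genotype's channel were well above background on all 4 arrays. Each gene was represented by its brightest remaining probe. Genes were named through RefSeq accessions where these matched (25097 probes) and by the files otherwise. The 2 ratios per gene were tested two-sided against 0 with lmFit and eBayes (3.18 degrees of freedom, of which the prior gave 2.18) and adjusted by Benjamini-Hochberg over 12367 genes. The number of arrays limits the precision.

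Same-numbered extracts were hybridised together, so the replicate block is part of the fit. Across genes, their deviations from the genotype means had a correlation of 0.18. The code was tested on simulated data. Kappa B matches were searched on both strands with Python 3.11.15, and figures drawn with matplotlib 3.10.9.

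The members and lists were chosen with earlier results of these data known. Named were every member, Atg7, the 6 tested genes of smallest unadjusted p in each of the upstream and target lists, and the 3 genes nearest to the member with the largest mean ratio. Outside this rule, targets with replicates of opposite sign were named after their values were seen. Alternatives covered background correction, normalization, the filter, the choice of probe, the prior variance, how replicates enter the fit, and each replicate left out. One leukocyte marker is not reported here.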

Additional observations from a re-analysis of the deposited data

How the results depend on the processing

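The adjusted p of every tested member stayed above 0.05 under all 12 alternatives that give one, from 0.461 for Nfkbia upward. The direction of Nfkbia, Nfkbib, Nfkbie and Nfkbiz held under all of them and without either replicate, but under median centring Nfkbia was -0.026 and Nfkbib -0.11. Under median centring the mean ratio reversed for Nfkb2 (0.066), Rela (0.032), Relb (0.034) and Tnfaip3 (0.010), the medians were 0.031 for the members, 0.060 for the upstream list and 0.055 for the targets, and 0 members were higher and 0 lower on all arrays. Without replicate 1 or 2 in turn, Nfkb2 ranged from -0.061 to 0.035, Tnfaip3 from -0.39 to 0.31, and the upstream median from -0.0034 to 0.036 and the target median from -0.11 to 0.053; 2 members were then higher and 3 lower on both remaining arrays, and no test was possible with 1 replicate. Genes called over the whole array were 0 in the main fit, 7 higher and 2 lower with the pair as a random replicate block on 4 arrays, 17 higher and 8 lower with the 4 arrays as independent, and 1 higher with no replicate block (extracts unpaired). None of these was a member. Treating the arrays as independent, which counts dye swaps as replicates, also brought Atg7 (-1.22) to an adjusted p of 0.0424, with 0.0424 to 0.9998 over its alternatives. The block changed no call of a member. A slide block could not be fitted with 1 slide, and the unpaired fit gives no count of signs per array. Nfkbie and Nfkbiz were read at no more than 1.96 and 2.17 times background, and Tnfaip3 had the widest interval of the members.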
